A study of Papio anubis with 40 samples.

Results

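The 5' fragments of glutamate tRNA with anticodon TTC (Glu-TTC) were followed in baboon serum through induced endometriosis. They were taken as the fragments of 25 to 36 nt that start at the first base of this tRNA and carry 1 start sequence, whose code left 1 character free for bases 11 to 15; among the members the start varied at bases 11 to 13 alone. This rule used sequence and length and no measured level, and it picked 322 of the 58587 distinct fragments, with 530602 of 130892201 counts (0.405%). Serum (0.5 mL) came from 8 olive baboons (Papio anubis) with no drug treatment, drawn before menstrual tissue was inoculated into the peritoneal cavity (month 0) and at months 3, 6, 9 and 15, which gave 5 groups of 8 libraries. All 8 animals were inoculated, so elapsed time and disease cannot be told apart here. The label was checked in longer fragments with the same first 20 bases: in those of at least 42 nt, bases 34 to 36 read TTC in 40 fragments (365 counts) and CTC in 1 fragment (1 count).

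A tRNA carries an amino acid to the ribosome and reads a codon with the 3 bases of its anticodon. Ribonucleases, angiogenin among them, cut mature tRNAs within the anticodon loop and leave a 5' and a 3' piece (tRNA-derived stress-induced RNAs), which rise in many cells under stress and circulate in blood. The 5' pieces of glutamate and glycine tRNAs are known as abundant small RNAs of mammalian serum.

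Because every member starts at base 1, its length gives the base at which it ends. The unsubstituted sequences below are those whose ends carried the results; capitals mark the bases after base 25, where the members differ, and the 36 nt member ends at the last base of the anticodon.
tRF-26-86J8WPMN1EE: tcccacatggtctagcggttaggatT
tRF-28-86J8WPMN1E0J: tcccacatggtctagcggttaggatTCC
tRF-31-86J8WPMN1E8Y0: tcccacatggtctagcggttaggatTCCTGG
tRF-32-86J8WPMN1E8YN: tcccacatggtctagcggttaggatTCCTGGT
tRF-33-86J8WPMN1E8Y0E: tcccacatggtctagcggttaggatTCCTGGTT
tRF-36-86J8WPMN1E8Y7ZD: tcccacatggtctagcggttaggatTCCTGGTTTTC

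The longest fragment with this start, of 75 nt and with a total of 2 counts, shows where those ends lie; its capitals mark the anticodon.
tRF-75-86J8WPMN1E8Y7Z2R1HPSR9O9337KB6: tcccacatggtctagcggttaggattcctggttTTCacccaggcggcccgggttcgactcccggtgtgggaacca

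Of the 322 members, 12 were unsubstituted, 1 for each length, and held 511392 counts. The other 310 differed from them by exactly 1 base and held 19210 counts, of which 80.1% were transitions. Bases 11 to 15 took the main form in 99.1% of member counts, and the next forms, T11C, T13C, C12A and C12T (positions counted from the 5' end, unsubstituted base first), held 0.447%, 0.293%, 0.102% and 0.0920%. Changes at bases 14 and 15 altered another character of the fragment code and fell outside the rule. The substituted members tested at 32 nt include the 4 below, with the changed base in capitals.
tRF-32-86J83PMN1E8YN: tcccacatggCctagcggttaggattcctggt
tRF-32-86J88PMN1E8YN: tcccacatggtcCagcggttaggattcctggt
tRF-32-86J8WPMN1E8SN: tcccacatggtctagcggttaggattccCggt
tRF-32-86J8WPMN1E8YM: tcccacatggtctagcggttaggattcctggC

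Near relatives served for comparison. A second Glu-TTC start differs from the members by C6T alone (177 fragments of 25 to 36 nt, 114732 counts), and its longer fragments read TTC at bases 34 to 36 in 85 counts and no other anticodon. The 5' fragments of Glu-CTC, the other glutamate tRNA, were much more abundant (370 fragments, 7262442 counts, 5.55% of all counts). The gene names of the RefSeq annotation of this species, assembly Panubis1.0, list 11 glutamate tRNA genes of anticodon UUC and 3 of CUC. The leading fragment of the second start is shown, with the base that differs from the 31 nt member in capitals.
tRF-31-86V8WPMN1E8Y0: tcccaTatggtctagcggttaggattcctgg

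Library totals ran from 198840 to 6245450 counts, and members contributed 641 to 72982 counts per library. The lowest of both was the month 0 library of PA8001, where the floor of 3 counts stood at 7.82 CPM (counts scaled to a common library size by the trimmed mean of M values), so its rare members were not measurable. Counts were spread unevenly over the members: 48 had a total count of 1, 160 had fewer than 10 and 22 appeared in all 40 libraries. Only 31 of the 322 reached the level at which fragments were tested, and these were the abundant ones. PA8001 and PA8003 at month 15 had the highest shares of member counts in 32 to 36 nt, 85.0% and 77.6%, with PA8915 next at 53.6%. They are called the outlying pair below, and each result that rests on them is given with and without them. The name is descriptive only, since Dixon's ratio, explained further below, flagged neither this share nor the length ratio. Scaling bore on PA8003 at month 15, where members made up 0.274% of counts but summed to 5990 CPM. Its scaling factor of 0.458 was the lowest of the 40 libraries, so every CPM value of that library was raised, those of single fragments included.

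The 31 nt length led the members. Substituted forms included, 31 nt held 55.7% of member counts, 32 nt 19.9%, 28 nt 7.95%, 33 nt 7.72% and 30 nt 3.18%. Each of the other 7 lengths held at most 1.71%. Among the unsubstituted members 31 nt was the most abundant length in 34 of 40 libraries, and 32 nt came second in 32. The exceptions gathered at month 15, when 32 nt led in 3 libraries and 33 nt in 1; before that 32 nt led in 1 library at month 0 and 1 at month 6. By mean level over the 40 libraries the unsubstituted 31 nt fragment, tRF-31-86J8WPMN1E8Y0, ranked 29th of 58587 fragments.

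The length profile differed between the 2 glutamate tRNAs. The second Glu-TTC start had a similar profile, with 61.0% ± 14.9 at 31 nt, 22.4% ± 13.2 at 32 nt and 3.64% ± 3.33 at 28 nt (mean ± SD over 40 libraries), against 53.8% ± 13.8, 25.4% ± 13.4 and 5.62% ± 4.93 for the members. In Glu-CTC the 28 nt length held 0.267% ± 0.311 and the 29 and 30 nt lengths 6.84% ± 3.77 and 14.1% ± 4.91, where the members had 0.872% ± 0.305 and 2.32% ± 1.27. Both Glu-TTC starts thus had a 28 nt form that was scarce in Glu-CTC, and fewer of the 29 and 30 nt ends found there; these shares were not tested.

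**Figure D1:**
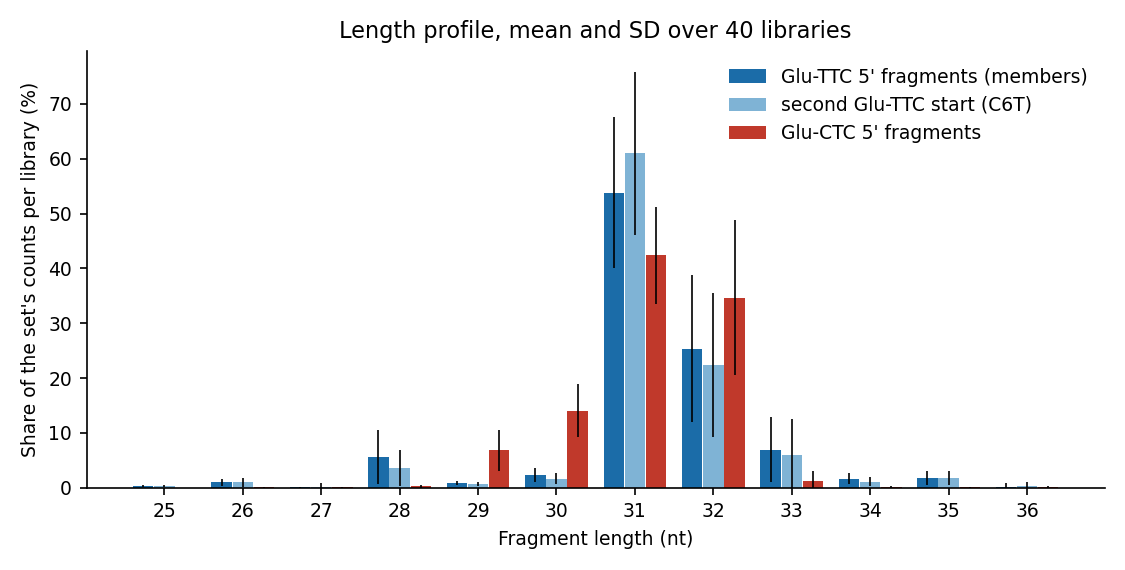
Share of each set's counts by fragment length in nt, as the mean over 40 libraries; lines show 1 SD and stop at 0. Members and the second Glu-TTC start peak at 31 nt with a minor form at 28 nt, while Glu-CTC spreads over 29 to 32 nt.

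Shortened pieces ended at the same bases. Fragments that are an exact part of a longer Glu-TTC fragment and begin at bases 2 to 20 numbered 209 (30646 counts), and 58.7% of their counts ended at base 31 and 25.2% at base 28. The leading one lacked only the first base of the 31 nt fragment (9063 counts), and a 20 nt piece beginning at base 12 and ending at base 31 followed (6484 counts). That piece is also part of the second start, so its counts cannot be assigned to one of them. The 3' side was thinner: 155 such fragments began after base 20, with 10115 counts.

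Substituted members mirrored the unsubstituted ones. Among the 18 substitutions with at least 100 counts at 31 nt and 30 at 32 nt, the substituted form held 0.491 to 4.66 counts per 1000 unsubstituted at 31 nt and 0.346 to 5.04 at 32 nt, and the quotient of the 32 to the 31 nt rate had a median of 1.05. Its extremes were C28A with 0.315 and A21C with 1.27. Across these substitutions the log rates at the 2 lengths correlated with r = 0.92, given as a description because they share libraries and base positions. The share of member counts with a substitution was 4.63% ± 2.00 per library and ranged from 1.90% (PA8001, month 9) to 9.42% (PA8001, month 6).

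At single positions another base was rare with 1 exception. At base 6 another base was found in 18.0% of counts, nearly all of it C6T, the second start. The next highest values among well covered positions were 1.33% at base 7 and 1.18% at base 5, which lie outside the rule, and within it 0.669% at base 33, 0.675% at base 34 and 0.604% at base 24. Base 36 had 4.85%, on only 1000 unsubstituted counts.

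The summed level of the members did not shift in one direction. It was 4925 ± 5085 CPM at month 0, 3643 ± 1984 at month 3, 3316 ± 1264 at month 6, 3453 ± 2047 at month 9 and 4216 ± 2652 at month 15 (SD, n = 8). At each later month 4 animals were above and 4 below their own month 0; as a percent of library counts 3, 4, 2 and 3 were above and 5, 4, 6 and 5 below at months 3, 6, 9 and 15. PA8914 was the highest animal at months 0, 3, 6 and 9 and peaked at 16992 CPM at month 0, against 1177 to 5591 CPM in the other animals. PA8001 was the highest at month 15 (9785 CPM), where the others lay between 1573 and 5990 CPM.

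The summed level of the second start followed that of the members, with r = 0.93 over the 40 libraries on the log2 scale, and Glu-CTC followed less closely with r = 0.68; libraries of the same animal and scaling are shared. For every 100 member counts there were 20.5 ± 5.11 of the second start. Within the members the 31 nt fragment tracked the 30 nt fragment (r = 0.90) and the 28 nt fragment (r = 0.84) more closely than the 33 nt fragment (r = 0.62), the 35 nt fragment (r = 0.22), the 32 nt fragment (r = 0.16) or the 26 nt form (r = 0.09).

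Against month 0, no member passed at any later month. With edgeR's quasi-likelihood test and Benjamini-Hochberg adjustment over all 2447 fragments tested, the called members numbered 0 of 31 at months 3, 6 and 9, where the background was 0% in all fragments, and 0 of 31 at month 15, where it was 2.37%. At an unadjusted p under 0.05 there were 3, 4, 5 and 4 members, beside 73, 310, 201 and 509 of all fragments. DESeq2 and limma-voom also called 0 members in each of these comparisons. The members' median log2 change was -0.27, -0.31, -0.37 and -0.28, beside 0.10, 0.01, 0.06 and 0.05 for all tested fragments.

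Most tested members were below month 0 at months 3 and 9, and none passed. Of the 12 tested members of 32 to 36 nt, 8 of which are the 32 nt fragment and its substituted forms, 12, 11 and 12 were below month 0 at months 3, 6 and 9, with medians of -0.52, -0.43 and -0.61, and 10 were above it at month 15, with a median of 0.39. Of the 19 tested members of 25 to 31 nt, 12, 9, 15 and 16 were below month 0 at months 3, 6, 9 and 15, with medians of -0.18, 0.01, -0.24 and -0.46. Among these 19, 12 are substituted forms of the 31 nt fragment. In both length groups such forms share all but 1 base and the same libraries, so the members are not independent observations. The smallest p values at months 3 and 9 belonged to the 32 nt T13C form, tRF-32-86J88PMN1E8YN, which was lower in 8 of 8 animals at both, by log2 -1.15 ± 0.354 (SE) and -1.24 ± 0.358, with edgeR adjusted p = 0.999 and 0.582. At month 6 it differed by -0.71 and was lower in 7 of 8, with edgeR adjusted p = 0.385. The T13C form had only 2 to 15 counts per library at month 3 and 1 to 10 at month 9, partly under the floor of 3 counts. Its highest month 0 value, 10.4 CPM, was that of PA8001, the library with the lowest total. The 32 nt T11C form, tRF-32-86J83PMN1E8YN, differed by -0.69, -0.63 and -1.32 and was lower in 6, 5 and 8 of 8 animals, with edgeR adjusted p = 0.999, 0.536 and 0.582.

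The 32 nt T26C form, tRF-32-86J8WPMN1EKYN, was lower at month 3 in 7 of 8 animals, by -0.95 with edgeR adjusted p = 0.999. The unsubstituted 32 nt fragment differed by -0.53, -0.72 and -0.69 at months 3, 6 and 9 with edgeR adjusted p = 0.999, 0.380 and 0.582, and the 26 nt form by -0.82 and -0.91 at months 6 and 9 with 0.373 and 0.582. At month 6 the smallest p belonged to the 35 nt fragment, which differed from month 0 by log2 -1.11 ± 0.544 (SE), -1.42 ± 0.562 and -1.58 ± 0.548 at months 3, 6 and 9 with edgeR adjusted p = 0.999, 0.337 and 0.582. Its animals split 4 below to 4 above at months 3 and 6 and 5 to 3 at month 9. At month 15 the smallest p belonged to the 31 nt T29C form, tRF-31-86J8WPMN1E8S0, which was lower in 7 of 8 animals by a log2 change of -0.68 ± 0.255 (SE) with edgeR adjusted p = 0.141. The 31 nt A21G and T11C forms, tRF-31-86J8WPMNRE8Y0 and tRF-31-86J83PMN1E8Y0, differed by -0.81 and -0.53, and the 32 nt T29C form, tRF-32-86J8WPMN1E8SN, by 0.92, with edgeR adjusted p = 0.221, 0.281 and 0.232.

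The 32 nt fragment and its substituted forms made up most of the members called at month 15 against months 3, 6 and 9, with 4 of 4, 4 of 5 and 6 of 8 calls. The called members numbered 4 of 31 against month 3 (12.9%), where 11.1% of all tested fragments were called and 7.19% were called higher. Against month 6 there were 5 (16.1%, background 26.6%, higher 17.0%), and against month 9 there were 8 (25.8%, background 30.6%, higher 18.2%). Every called member was higher at month 15. The members' share of calls was near the background against month 3 and below it against months 6 and 9, so the count itself sets them apart from no other fragments. A joint test over all months called 5 (16.1%, background 16.2%). Leaving out 1 animal lowered the count against month 3 to 0 (PA8873 or PA8914), 1 (PA8001 or PA8003) or 2 (PA8912 or PA8915). It lowered the count against month 6 to 2 (PA8872) or 3 (PA8003, PA8873 or PA8914), and the count against month 9 to 4 (PA8001) or 5 (PA8003). Other animals left out raised it, and the full ranges were 0 to 6, 2 to 6 and 4 to 10. The share of all fragments called in these fits is not given here, so the counts do not show a change particular to the members. Without the outlying pair the count of called members was 0 in every comparison. The background fell as well, to 0%, 3.82% and 0.618% of 2591 tested fragments against months 3, 6 and 9. The loss of calls was thus not particular to the members.

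The 32 nt fragment, tRF-32-86J8WPMN1E8YN, was called in all 3 comparisons. At month 15 it stood at 4258 CPM in PA8003, 3255 in PA8001, 1256 in PA8914, 988 in PA8912, 961 in PA8872, 829 in PA8915, 650 in PA8873 and 599 in PA8835. The place of PA8003 above PA8001 depends on the scaling described above. At month 15 this fragment was thus highest in the outlying pair. At month 3 it had run from 421 to 772 CPM with a median of 570, at month 6 from 380 to 967 with a median of 471, and at month 9 from 242 to 789 with a median of 600. The groups overlapped, since the lowest month 15 animals lay within the range of the earlier months, but the comparison within animals was higher in 7, 8 and 8 of 8.

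At month 0 the 32 nt fragment ran from 409 to 2018 CPM with a median of 774. Its log2 change at month 15 was 1.14 ± 0.337 (SE) against month 3, 1.33 ± 0.332 against month 6 and 1.31 ± 0.334 against month 9, with edgeR adjusted p = 0.0352, 0.00677 and 0.0107. Against month 0 it was 0.62 ± 0.340 and higher in 7 of 8 animals, with edgeR adjusted p = 0.284. Without the outlying pair the 3 called changes became 0.59, 0.70 and 0.72, with edgeR adjusted p = 0.309, 0.147 and 0.124. The direction thus held and the calls did not.

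The 31 nt fragment was lower at month 15 and did not pass. It had a median of 1914 CPM at month 0 (474 to 10365), 1724 at month 3 (673 to 3807), 1939 at month 6 (467 to 3137), 1851 at month 9 (502 to 4352) and 1083 at month 15 (639 to 2308). Its month 15 differences were log2 -0.65 ± 0.399 (SE), -0.57 ± 0.393, -0.50 ± 0.398 and -0.58 ± 0.396 against months 0, 3, 6 and 9, each lower in 5 or 6 of 8 animals, with edgeR adjusted p = 0.340, 0.309, 0.341 and 0.257.

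**Figure D2:**
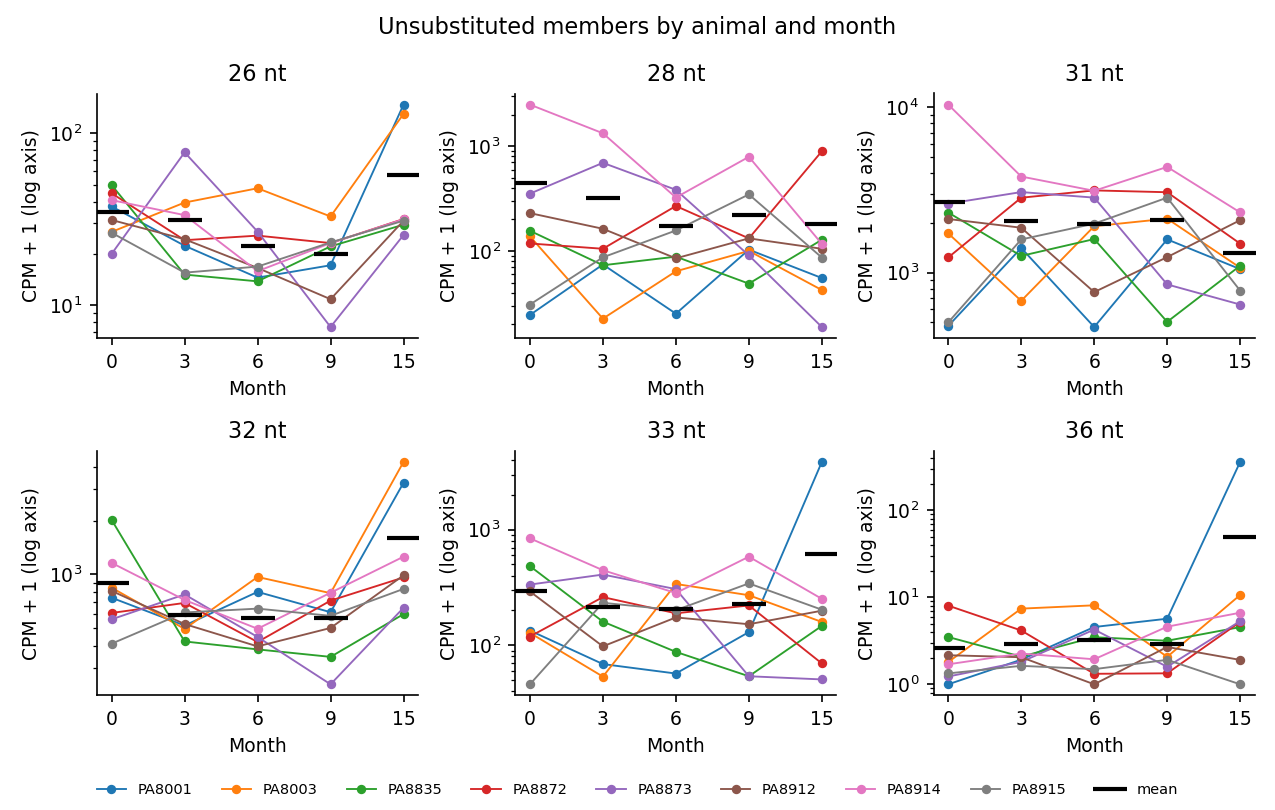
CPM plus 1 on a log axis by month for 6 unsubstituted members; each colour is 1 of 8 animals and black dashes are means. At month 15 PA8001 and PA8003 are highest at 26 and 32 nt, and PA8001 alone is far above the rest at 33 and 36 nt.

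The 26 nt form, which ends well short of the anticodon, was also higher at month 15 than at months 6 and 9. At month 15 it stood at 145 CPM in PA8001 and 128 CPM in PA8003, and at 24.6 to 30.7 CPM in the other 6 animals; the median was 15.7 CPM at month 6 (12.8 to 46.8) and 21.5 CPM at month 9 (6.50 to 31.8). It was higher at month 15 by log2 1.28 ± 0.379 (SE) than at month 6 (7 of 8 animals) and by 1.38 ± 0.382 than at month 9 (8 of 8), with edgeR adjusted p = 0.0135 and 0.0124. Without the outlying pair these were 0.62 and 0.73 with edgeR adjusted p = 0.256 and 0.165. At month 0 its median was 33.4 CPM (18.9 to 48.9), above that of month 15, 30.3 CPM.

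The highest levels of the 33, 35 and 36 nt fragments at month 15 were those of PA8001. There the 33 nt fragment reached 3859 CPM, against 49.6 to 251 in the other animals. With its substituted forms, it made up 40.8% of member counts there. Its month 15 median, 178 CPM, was below those of months 3, 6 and 9 (195, 194 and 185), and it was higher at month 15 in only 3, 4 and 3 of 8 animals. The 35 nt fragment reached 502 CPM, against 15.3 to 109, and was higher than at months 3, 6 and 9 in 3, 6 and 5 animals; neither length passed. The 36 nt fragment reached 360 CPM on 743 counts, against 0 to 9.65 CPM, and this 1 library held most of its 1000 counts in the series. The 36 nt fragment was called against month 9 (log2 2.30 ± 0.873, SE, edgeR adjusted p = 0.0440, higher in 6 of 8 animals), and changed by 0.82 with adjusted p = 0.363 without that library. Its change against month 0 was 2.29 ± 0.863 with edgeR adjusted p = 0.141, and 1.08 with adjusted p = 0.391 without that library.

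The 28 nt fragment varied widely between and within animals. In PA8914 it stood at 2498, 1330, 323, 792 and 116 CPM at months 0, 3, 6, 9 and 15. In PA8872 it stood at 117, 104, 268, 131 and 895 CPM. With its substituted forms, it held 24.9% of member counts in PA8872 at month 15. Its medians were 146, 94.9, 122, 116 and 95.0 CPM at months 0, 3, 6, 9 and 15. Its log2 differences at month 15 lay between -0.52 and 0.16 with SE of 0.609 to 0.639, and none passed; against months 3, 6 and 9 their sign depended on single animals.

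Other lengths gave no call. The 25 nt form had medians of 9.84, 7.61, 11.2, 8.51 and 10.7 CPM by month, the 27 nt form at most 2.15 and the 29 nt form 31.7, 22.0, 22.9, 27.0 and 23.8. The 30 nt fragment had its lowest median at month 15, 49.6 CPM against 91.6 at month 0, with a log2 difference of -0.96 ± 0.615 (SE) and edgeR adjusted p = 0.364. The 34 nt fragment, with medians of 60.2, 43.8, 60.2, 36.3 and 37.0 CPM, was the only tested length above 31 nt whose month 15 difference was negative against every other month, -0.78, -0.66, -0.36 and -0.35, and none passed; the last was 0.00 without PA8003.

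**Figure D3:**
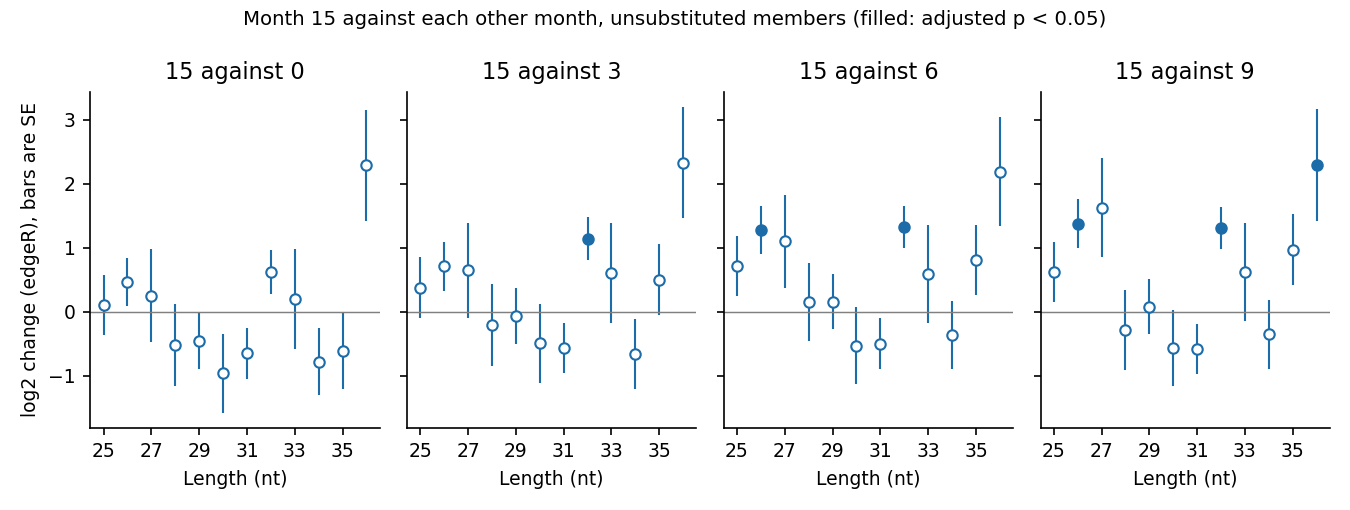
Log2 change of the 12 unsubstituted members at month 15 against months 0, 3, 6 and 9 by length in nt, with SE; filled points have an adjusted p under 0.05 in edgeR's quasi-likelihood test. The 32 nt point is above 0 in all 4 panels and filled in 3, while 30, 31 and 34 nt lie below 0 in all 4.

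Most other calls were substituted copies of the 32 nt fragment, which are low in counts. The T13C form, tRF-32-86J88PMN1E8YN, had medians of 2.92, 1.28, 1.88, 1.44 and 3.59 CPM at months 0, 3, 6, 9 and 15. It was higher at month 15 by log2 1.47 ± 0.351 (SE) than at month 3 and by 1.57 ± 0.356 than at month 9, in 8 of 8 animals each, with edgeR adjusted p = 0.0281 and 0.00788, and by 1.04 ± 0.339 than at month 6, in 6 of 8, with adjusted p = 0.0227. The T11C form, tRF-32-86J83PMN1E8YN, with a median of 1.96 CPM at month 9 and 6.24 at month 15, was called against month 9 (1.67 ± 0.409, 8 of 8 animals, edgeR adjusted p = 0.00987).

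The T29C form, tRF-32-86J8WPMN1E8SN, had a median of 4.54 CPM at month 15 against 2.13, 2.30 and 2.39 at months 3, 6 and 9, and changed by log2 1.43 ± 0.444 (SE), 1.24 ± 0.439 and 1.19 ± 0.447 with edgeR adjusted p = 0.0392, 0.0345 and 0.0410. The T32C form, tRF-32-86J8WPMN1E8YM, had a median of 3.61 CPM against 1.35, 1.77 and 1.08 and changed by 1.25 ± 0.416, 1.08 ± 0.401 and 1.45 ± 0.424 with edgeR adjusted p = 0.0468, 0.0437 and 0.0139. The A24G form at 32 nt was called against month 9 alone (0.93 ± 0.325, 6 of 8 animals, edgeR adjusted p = 0.0307) and is named here after its values were seen. None of the calls on these 5 forms held without the outlying pair, although the changes stayed positive. Against months 3, 6 and 9 the T13C change was then 1.28, 0.82 and 1.38 (edgeR adjusted p = 0.245, 0.168 and 0.0703), that of T29C 0.96, 0.71 and 0.74 (0.299, 0.322 and 0.277) and that of T32C 0.96, 0.73 and 1.16 (0.299, 0.301 and 0.0996). Against month 9 the T11C change was 1.44 (edgeR adjusted p = 0.0840) and the A24G change 0.83 (0.133). The T13C, T11C and A24G changes thus stayed close to their values with all libraries, while those of the unsubstituted 32 nt fragment were smaller, as given above.

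Members with a substitution lay with the unsubstituted form of their own length. Against month 3 all 7 tested substituted members of 32 nt were higher at month 15 (log2 0.95 to 1.47) and all 12 of 31 nt were lower (-0.88 to -0.08), beside 1.14 and -0.57 for the unsubstituted forms. The same split was found against month 6 (0.62 to 1.24 and -0.84 to -0.14), and against month 9 all 7 were higher (0.93 to 1.67) and 11 of 12 lower. These members share all but 1 base and the same libraries, so they are not independent observations.

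**Figure D4:**
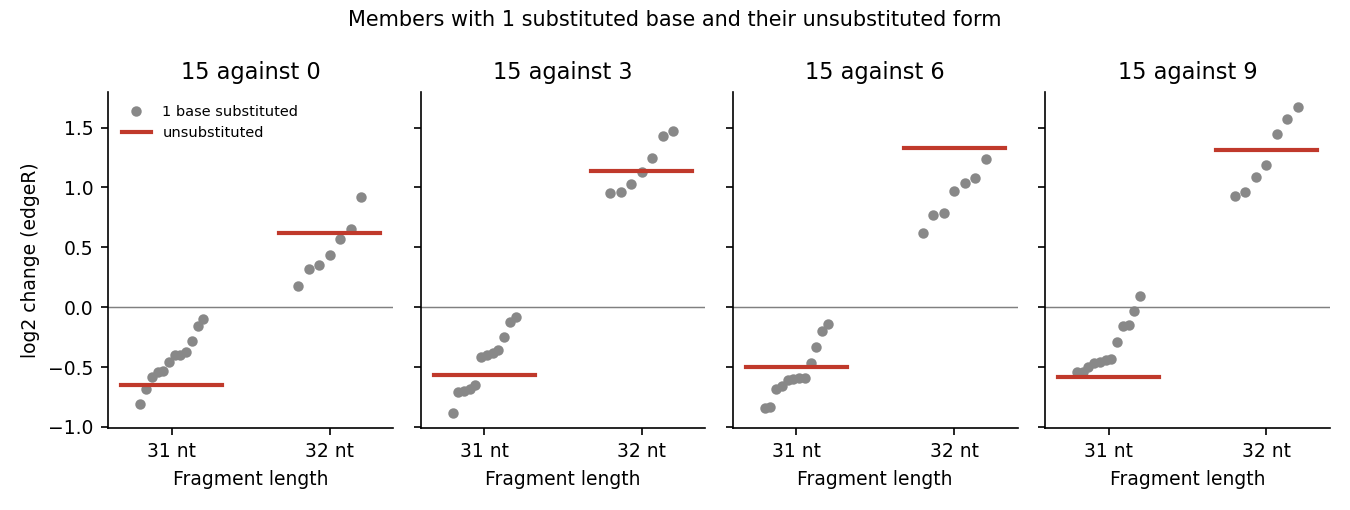
Log2 change at month 15 against months 0, 3, 6 and 9 of members with 1 substituted base (grey, 12 at 31 nt and 7 at 32 nt) and of the unsubstituted form of the same length (red line). Grey points at 32 nt lie above 0 in every panel and those at 31 nt below 0, apart from 1 point against month 9.

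The shift of length was measured within each library as the log2 ratio of the 32 to the 31 nt fragment, which does not depend on scaling between libraries. It averaged -1.08 ± 1.20, -1.64 ± 0.59, -1.63 ± 1.23 and -1.66 ± 0.63 at months 0, 3, 6 and 9 (SD, n = 8), and 0.04 ± 1.18 at month 15. At month 15 it was 1.99 in PA8003, 1.64 in PA8001, 0.09 in PA8915, 0.02 in PA8873, -0.64 in PA8872, -0.88 in PA8914 and in PA8835, and -1.07 in PA8912.

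The ratio was higher at month 15 by 1.12 ± 1.27 (SD) than at month 0 in 7 of 8 animals, by 1.67 ± 0.81 than at month 3 in 8 of 8, by 1.67 ± 1.02 than at month 6 in 7 of 8 and by 1.70 ± 1.28 than at month 9 in 7 of 8. The exact two-sided sign-flip permutation p over 8 animals was 0.0391, 0.00781, 0.0156 and 0.0234, of which 0.00781 is the smallest this design can give, and 0.0391, 0.0312, 0.0312 and 0.0312 after adjustment over the 4 comparisons. Without the outlying pair the differences were 0.82, 1.31, 1.59 and 1.19 over 6 animals, with exact permutation p adjusted to 0.156, 0.125, 0.125 and 0.125. The month 15 libraries are shared by the 4 comparisons, so these are not independent. The division between these lengths and the focus on month 15 were chosen with earlier results of these same libraries known. The p values are therefore not independent evidence of a shift.

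As a share of all member counts, 32 to 36 nt held 38.3% ± 15.3, 29.6% ± 8.31, 31.8% ± 16 and 29.2% ± 6.88 at months 0, 3, 6 and 9 and 51.4% ± 20.3 at month 15 (SD, n = 8). The month 15 share was above that of months 0, 3, 6 and 9 in 6, 8, 7 and 7 of 8 animals. Its highest values were 85.0% in PA8001 and 77.6% in PA8003, and without the outlying pair its mean was 41.4% ± 9.63. Long shares were not limited to month 15: PA8001 had 64.1% at month 0 and 63.7% at month 6.

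The higher ratio at month 15 was also found in the second Glu-TTC start. Its log2 ratio had means of -1.42, -1.96, -1.99 and -2.16 at months 0, 3, 6 and 9 and -0.47 at month 15. The members' change exceeded that of the second start by 0.17 ± 0.45 (SD), 0.19 ± 0.31, 0.15 ± 0.51 and 0.01 ± 0.29 against months 0, 3, 6 and 9, with exact permutation p adjusted to 0.625, 0.594, 0.635 and 0.875. In the 6 animals outside the outlying pair the ratio of the second start was higher at month 15 by 0.77, 1.25, 1.64 and 1.32 in 5, 6, 5 and 5 animals, and the members' change minus that of the second start was 0.05, 0.06, -0.05 and -0.12; these were not tested. These comparisons with the second start were chosen after the members' values were seen.

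**Figure D5:**
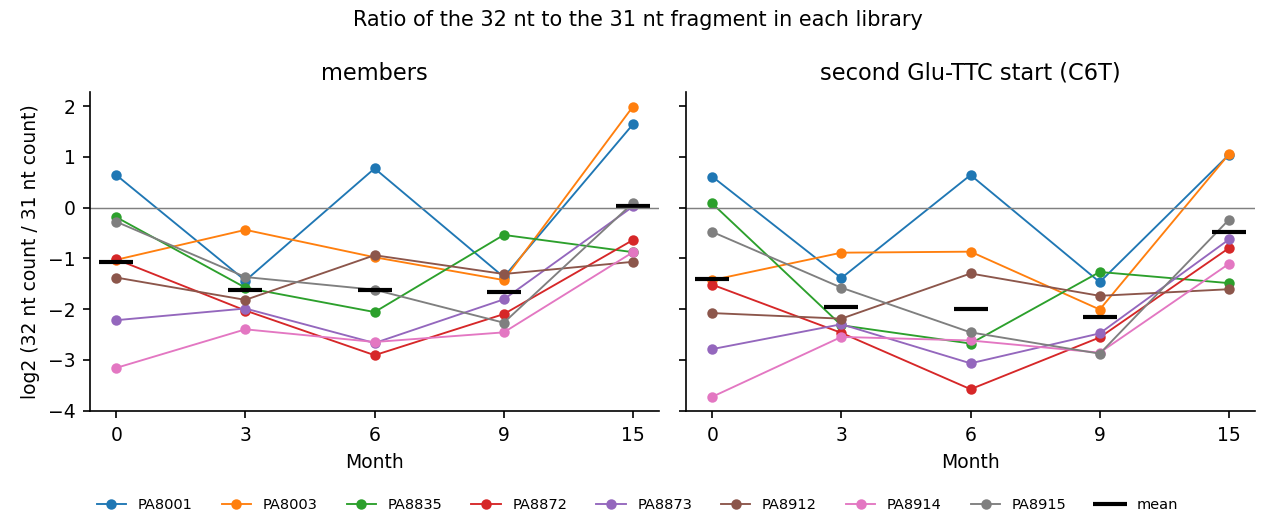
Log2 ratio of the 32 nt to the 31 nt fragment by month for the members and the second Glu-TTC start; each colour is 1 of 8 animals and black dashes are means. In both panels the mean is highest at month 15, and PA8003 and PA8001 lie at the top there.

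Glu-CTC also split by length. Against month 9, 11 of 12 tested members of 32 to 36 nt were higher at month 15 with a median log2 change of 1.14 (7 called) and 5 of 19 of 25 to 31 nt were higher with a median of -0.29. In Glu-CTC 34 of 36 long fragments were higher with a median of 1.12 (21 called, beside 30.6% of all fragments) and 2 of 61 short ones were, with a median of -0.45. Against months 3 and 6 the long Glu-CTC fragments had medians of 0.55 and 0.58. Of these, 33 and 34 of 36 were higher and 0 and 3 were called. The long members had medians of 1.08 and 0.89, with 11 of 12 higher and 4 called in each. Of all tested fragments 11.1% and 26.6% were called. By counts the sets were closer. In Glu-CTC 32 to 36 nt held 31.3%, 30.7%, 27.8% and 51.0% of counts at months 3, 6, 9 and 15. The members' shares were 29.6%, 31.8%, 29.2% and 51.4%. The month 15 share of Glu-CTC was above that of months 0, 3, 6 and 9 in 4, 7, 7 and 7 of 8 animals. The shares were not tested. In the second start, against month 9, 3 of 4 long ones were higher, with a median of 0.69, and 3 of 7 short ones were, with a median of -0.08. The 4 long ones were its 32, 33, 34 and 35 nt fragments, with log2 changes of 1.35, 0.65, -0.14 and 0.72. The unsubstituted members of those lengths changed by 1.31, 0.62, -0.35 and 0.97. With the outlying pair left out, a comparison chosen after seeing the data in which 2591 fragments were tested and 0.618% were called against month 9, no fragment of these sets was called higher. The long ones higher then numbered 11 of 13 members (median 0.83), 36 of 38 in Glu-CTC (1.13) and 1 of 4 in the second start (-0.43). These sets are unlike, since the long members include substituted forms of the 32 nt fragment, which are not independent observations. The counts and medians therefore do not show a difference between the 2 starts.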

How the data were processed

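The authors deposited raw read counts for each distinct fragment in each library, and a second table pairs fragments with their sequences. Per the labels' protocols, adapters were ligated to total RNA from serum, with molecular identifiers added at cDNA synthesis. Which aligner and tRNA reference the authors used, and whether identifiers were collapsed, is not given in the sources used here; floors (3 counts) therefore cover counting error only. The submitters' processing notes name R 4.5.0, edgeR and limma. Lines with no fragment ID (1614 of 60201, 0.0805% of counts) were dropped.

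The main test was edgeR's quasi-likelihood test (version 4.0.16, R 4.3.3, robust), run on the 2447 fragments that filterByExpr retained at a minimum count of 10. Libraries were scaled by the trimmed mean of M values (TMM), the model held animal and month for all 40 libraries, and two-sided p values were adjusted by Benjamini-Hochberg across fragments, with 0.05 as the threshold. Numbers pair libraries because they mark the same animal: deviations from month means correlated at 0.187 within and -0.0247 between animals. A count stands for 1 read fragment, so levels were not divided by length. Ratios (0.5 added to each count) were compared with exact sign-flip tests. Alternatives used DESeq2 1.42.0, limma 3.58.1, other scalings, filters and sets of libraries. The fit was tested on simulated data. One sequence of a comparison set, and the results that need it, are not reported here.

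The members and lists, the division into long and short lengths and the focus on the last month were chosen with earlier results of these data known. Members named with values are the 10 most abundant, the most abundant at each length and, by comparison, the called ones that agreed in sign in 7 or more of the 8 animals, or the 5 with the smallest p where fewer than 3 were called.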

Additional observations from a re-analysis of the deposited data

Results flagged for a closer look

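In each group of 8 libraries the highest or lowest animal was set against the others by Dixon's ratio, its gap to the nearest animal divided by the whole range, with its 95% critical value. Of 75 groups (the summed level, the long share, the length ratio and the 12 unsubstituted members at 5 months) 21 passed. The groups share libraries and are not independent. The critical value is meant for normally distributed values. Levels entered as CPM without a log and were skewed upward, as for 31 nt at month 0 (2664 ± 3211 CPM, SD). No chance rate is therefore set beside this number. The long share and the length ratio were not flagged. All 21 were animals at the high end.

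Month 0 of PA8914 accounted for 8 of them. Its summed level was 16992 CPM against 5591 in the next animal, and the same library stood out for the 25 nt (64.5 CPM), 27 nt (16.1), 28 nt (2498), 29 nt (193), 30 nt (1031), 31 nt (10365) and 34 nt (256) members. Its 32, 33, 35 and 36 nt members were not set apart. At month 9 the same animal stood out for 27 nt (7.38 CPM), 28 nt (792) and 34 nt (189).

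Month 15 of PA8001 accounted for 4, with 83.2 CPM at 29 nt, 3859 at 33 nt, 502 at 35 nt and 360 at 36 nt. Its 34 nt member, with 80.3 CPM, was not set apart.

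Single values completed the set. The 28 nt member reached 895 CPM in PA8872 at month 15 against 127 in the next animal. The 26 nt member stood at 76.2 CPM in PA8873 at month 3 and 46.8 in PA8003 at month 6, and the 32 nt member at 2018 CPM in PA8835 at month 0. The 36 nt member stood at 7.03 CPM in PA8872 at month 0 and 6.42 in PA8003 at month 3, both on few counts.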

How the results depend on the processing

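Calls at months 3, 6 and 9 against month 0 stayed at 0 members under every alternative run; at month 15 against month 0 the count was 1 with no filter on low counts and 1 with no replicate block (animal left out of the model), and 0 otherwise. The no replicate block fit gave 5, 4, 9 and 7 called members at month 15 against months 3, 6 and 9 and in the joint test, beside 4, 5, 8 and 5 with the block. The counts in that order were 2, 2, 5 and 3 with library totals alone, 8, 9, 11 and 7 with DESeq2, 1, 2, 4 and 3 with no filter, and 1, 2, 2 and 2 with a minimum count of 50. Fits of only the 2 months compared gave 0, 4 and 3. Without the outlying pair (PA8001 and PA8003 at month 15) all 4 were 0. In that fit 0%, 3.82% and 0.618% of all tested fragments were called against months 3, 6 and 9. Chosen after seeing the data, leaving out the month 15 library of PA8001 alone gave 1, 3, 5 and 2. Leaving out each animal in turn gave 0 to 6, 2 to 6, 4 to 10 and 1 to 5. Apart from the fit without the outlying pair, the share of all fragments called under each alternative is not given here. These counts therefore do not show whether the members moved differently from the whole table. Of the 985 values of member changes recomputed, 977 kept their direction. The other 8 were all from differences that had not passed. For the 28 nt fragment against months 3, 6 and 9, leaving out 1 animal gave -0.92 to 0.30, -0.39 to 0.49 and -0.95 to 0.08, limma-voom and the fit of only 2 months gave -0.48 and -0.29 against month 6, and library totals alone gave 0.01 against month 9. For the 34 nt fragment against month 9, leaving out 1 animal gave -0.75 to 0.00.

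The length ratio at month 15 exceeded that of months 0, 3, 6 and 9 by 0.84 to 1.37, 1.47 to 1.81, 1.48 to 1.93 and 1.45 to 1.99 with 1 animal left out, where 7 animals allow no exact p below 0.0156 and most adjusted p were above 0.05. Without the outlying pair it was 0.82, 1.31, 1.59 and 1.19 and did not pass; 6 animals allow no p below 0.0312. Counting from 31 nt, the long share was 89.1%, 88.8%, 90.6%, 89.8% and 90.7% by month, and from 33 nt 11.0%, 9.55%, 10.2%, 9.17% and 13.5%. Without the 32 nt fragment it was 17.9%, 13.2%, 15.5%, 12.5% and 24.3%. The cause of these differences was not tested. Counts limit the substituted members, most of which had under 20 counts per library.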
